A study of Bos taurus with 60 samples.

Results

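The erythroid miRNAs bta-miR-486, bta-miR-451 and bta-miR-144 were followed through the liver of 60 beef steers. They were chosen by name, as the entries of the deposited count files that carry exactly these miRNA names. They are 3 of the 1030 known miRNAs that these files list. Of 1207 listed pairs of miRNA and precursor, 52 were listed for only some breeds, and none of these was of a member. Each of the 3 had 1 precursor, and each was counted in all 60 steers. The steers were 20 Angus, 20 Charolais and 20 Kinsella Composite (KC) animals, with 1 small RNA library per steer. In each breed 6 steers were labelled low-RFI, 6 high-RFI, and 8 carried no RFI label, where RFI (residual feed intake) is the feed an animal eats beyond what its growth and maintenance predict, so that low-RFI steers are the feed-efficient ones. All were castrated males on one barley-based finishing diet with rumensin pellets, with no other treatment named in the labels, and liver was cut from the right lobe soon after stunning and exsanguination. The labels give no ages, and the study's description puts mean age at slaughter lowest in KC, so breed and age cannot be told apart. By the study's methods all 60 steers came from the high or low end of RFI in their breed, also those without a label. The labelled steers were the extremes among them that also had miRNA profiles like those of their breed. Neither set is a random sample of its breed. Steers shared sires: the 20 Angus came from 7 sires, the 20 Charolais from 5 and the 20 KC from 11 (1 KC steer with a placeholder for its sire counted as a sire of its own), and the largest families held 6, 8 and 8 steers.

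miR-144 and miR-451 are processed from 1 shared transcript that the erythroid factor GATA1 switches on, and both accumulate as red cells mature. miR-451 is unusual in that Argonaute2, not Dicer, cuts its precursor. miR-486 lies in the gene of erythrocyte ankyrin, is abundant in red cells, and is also made in skeletal muscle. In bulk RNA fewer cells of a type and less RNA per cell cannot be told apart. In the RefSeq annotation of the bovine assembly ARS-UCD2.0, MIR451 and MIR144 were direct neighbours between ERAL1 and FLOT2, and MIR486 lay within ANK1. The files were made on another build, UMD3.1, and no coordinates are given here.

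The mature sequences are shown because they tell whether reads of one member could be counted for another. They are taken from the study's list of miRBase sequences, 5′ to 3′, with the seed (bases 2 to 8, the part that pairs with targets) in capitals:
bta-miR-486: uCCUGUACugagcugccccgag
bta-miR-451: aAACCGUUaccauuacugaguuu
bta-miR-144: uACAGUAUagaugauguacuag

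They are 22, 23 and 22 bases long, with 63.6%, 34.8% and 31.8% G and C. No 2 members shared bases 2 to 7, and no other listed miRNA was near-identical to any of them (at least 18 aligned bases with at most 1 mismatch). No other listed miRNA had the first 6 seed bases of miR-486 or of miR-451. For miR-144 there were 2, which differ from it at the last seed position, and both are shown with the shared bases 2 to 7 in capitals:
bta-miR-101: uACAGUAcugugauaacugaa
bta-miR-199c: uACAGUAgucugcacauugg

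Both were present in every steer, at a median of 65952 counts for miR-101 and 125.5 for miR-199c. Spearman rho between miR-144 and miR-101 over 60 steers was 0.15, and between miR-144 and miR-199c it was 0.22. Over the 222 other miRNAs with at least 10 counts in every steer, rho with miR-144 had a median of 0.03. The 95th percentile was 0.225, which the value of miR-199c nearly reached.

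The libraries held 1930859 to 6759381 counts, and KC libraries were the deepest. Liver markers were in place, with miR-192 at 23.4% ± 1.98 (SD, n = 60) of all counts and miR-122, the main hepatocyte miRNA, at 0.811% ± 0.168 (SD, n = 60). Normalisation factors (TMM, a rescaling that lines up the bulk of the miRNAs) ran from 0.671 to 1.17, and 2 libraries of steers with no RFI label, Angus replicate 3 at 0.671 and Charolais replicate 7 at 0.685, stood apart from the rest. The pooled correlations between members and the Charolais to Angus fold changes are also given without these 2. The labels do not give sequencing pools.

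miR-486 was by far the most abundant member. Its level was 7214 ± 2445 CPM (counts scaled to a common library size, with TMM; SD, n = 60), with a lowest steer of 3192, a median of 6666 and a highest of 12800 CPM, a 4.01-fold range. It took 0.717% ± 0.232 of all counts, close to the share of miR-122 in the same libraries, and ranked between 11 and 27 among known miRNAs. miR-451 stood at 598 ± 203 CPM (SD, n = 60), from 193 to 1150 CPM around a median of 585, a 5.97-fold range. miR-144, the partner of miR-451 on the same transcript, stood at 24.5 ± 9.39 CPM (SD, n = 60), from 7.27 to 55.0 CPM around a median of 23.7, a 7.57-fold range. The mature forms differ by 1 base in length, so levels were compared without a length scale. The order miR-486 above miR-451 above miR-144 held in all 60 steers with no overlap between members, since the lowest miR-486 value exceeded the highest miR-451 value, and likewise for miR-451 and miR-144.

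Depth was ample for the first pair and moderate for miR-144. The median count per steer was 30160 for miR-486, 2597 for miR-451 and 103 for miR-144, which gives a counting error of 0.576%, 1.96% and 9.85%. For miR-144 the spread between steers, a coefficient of variation of 38.3%, was well above that. One steer, Charolais with no RFI label replicate 5, had the lowest count of each member, among them 7464 of miR-486 and 17 of miR-144. The exact 95% Poisson interval of its 17 counts of miR-144 is 9.9 to 27.2, which covers counting error only, because PCR reads are not independent molecules.

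**Figure D1:**
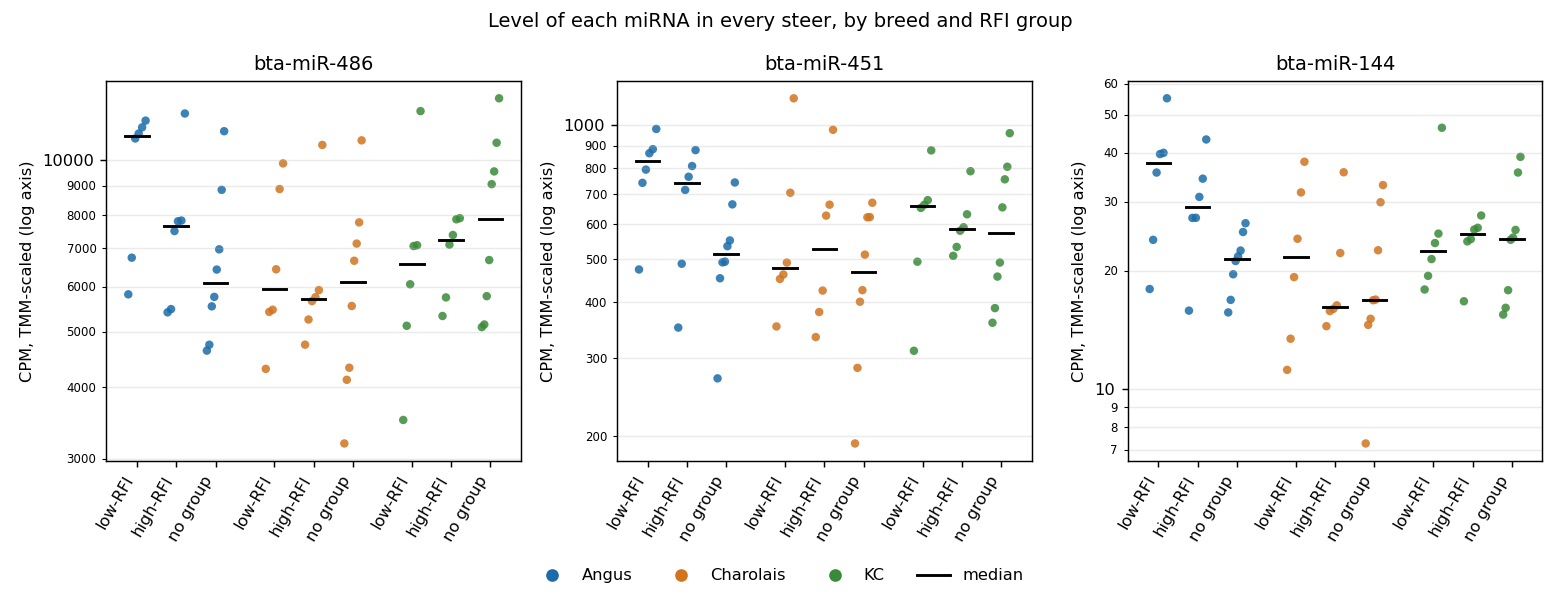
CPM (TMM-scaled, log axis) of bta-miR-486, bta-miR-451 and bta-miR-144 in each of the 60 steers, 1 point per steer, by breed (colour) and RFI group, with the median of each group as a black line. Values of low-RFI and high-RFI steers overlap in each breed for each member.

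How widely did the members vary between steers? The SD of log2 CPM within breeds was 0.47 for miR-486, 0.51 for miR-451 and 0.52 for miR-144. Over the 443 miRNAs that reached 1 CPM in 6 or more steers, the median SD was 0.45, and the members lay at the 52.4th, 56.9th and 57.3rd percentile. Low-count miRNAs vary more by counting alone. Among the 223 miRNAs with at least 10 counts in every steer the median SD was 0.29, and the members lay at the 88.8th, 93.3rd and 93.7th percentile, so that 24, 14 and 13 miRNAs of that set varied more. These percentiles are a description and carry no test. By breed, within the set of 223, miR-451 lay at the 94.6th percentile in Angus, the 93.3rd in Charolais and the 84.8th in KC.

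The 3 miRNAs rose and fell together from steer to steer. With log2 CPM centred on breed, miR-451 and miR-144 correlated at Pearson's r = 0.83 and Spearman's rho = 0.83 over 60 steers. For miR-486 and miR-451 the values were r = 0.78 and rho = 0.77, and for miR-486 and miR-144 r = 0.75 and rho = 0.69. Each of these r and rho values had a permutation p of 1e-05, the smallest that 100000 resamples within breed can give. After Benjamini-Hochberg adjustment over the 12 relations computed (3 pairs, pooled and in 3 breeds) the r values had p = 2e-05 and the rho values p = 3e-05. All points share the library scale of their steer, and steers of one sire are related, so the 60 points are not fully independent.

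The relation was present in each breed. For miR-451 and miR-144, the pair made from 1 transcript, r came to 0.88 in Angus, 0.84 in Charolais and 0.75 in KC, with rho of 0.93, 0.74 and 0.65. For miR-486 and miR-451 r was 0.71, 0.80 and 0.86 in the same order, with rho of 0.76, 0.70 and 0.84. The loosest relation was that of miR-486 and miR-144 in KC, with r = 0.70 (adjusted permutation p = 0.00056) and rho = 0.53 (adjusted permutation p = 0.0166). Over the other 8 within-breed relations the largest adjusted p was 0.000513 for r and 0.00254 for rho, both by permutation. Leaving out the 2 steers farthest from the median of the first-named member kept the pooled r at 0.77 for miR-486 and miR-451, 0.80 for miR-451 and miR-144, and 0.75 for miR-486 and miR-144. In KC, rho of miR-486 and miR-144 came to 0.42 without these 2 steers, a value that was not tested. Without the 2 libraries of low TMM factor the pooled r values were 0.81, 0.83 and 0.79 in the same order of pairs.

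**Figure D2:**
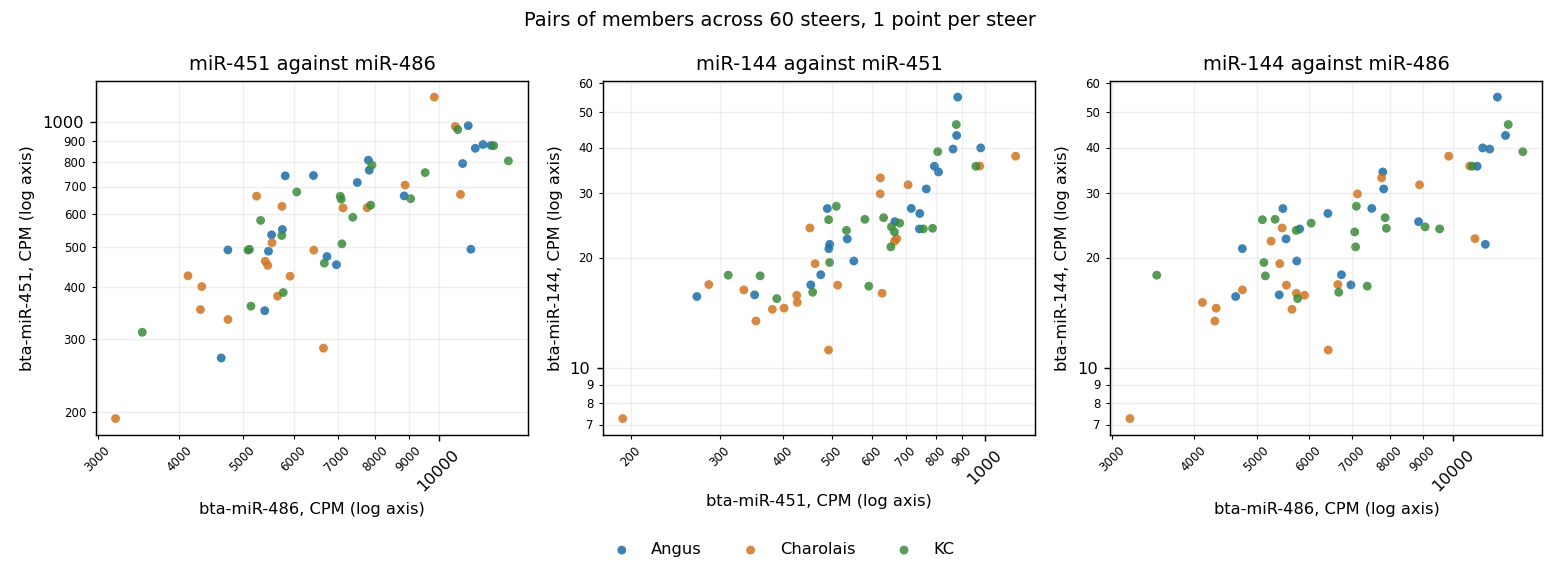
CPM (TMM-scaled, log axes) of each pair of members, 1 point per steer, coloured by breed. In each panel the points of the 3 breeds lie along 1 rising band, with pooled breed-centred r of 0.78, 0.83 and 0.75 from left to right.

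Ratios within a steer remove the library scale altogether, since both counts come from 1 library. The count ratio of miR-486 to miR-451 had a median of 12.1 over 60 steers and ran from 7.83 to 23.3, a 2.98-fold range against the 4.01-fold and 5.97-fold ranges of the members themselves. The ratio of miR-451 to miR-144 had a median of 25.3 and ran from 16.1 to 43.9. That of miR-486 to miR-144 had a median of 292 and ran from 196 to 575. The SD of the log2 ratio over all steers was 0.32, 0.30 and 0.35, below the 0.48, 0.52 and 0.54 of the log2 CPM of miR-486, miR-451 and miR-144.

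No ratio differed between breeds or RFI groups beyond the spread between steers. Geometric mean ratios of miR-486 to miR-451 were 12.2 in Angus, 12.2 in Charolais and 11.96 in KC. Those of miR-451 to miR-144 were 23.4, 26.0 and 24.6. The largest difference between breeds in this ratio, Charolais minus Angus, was 0.15 on the log2 scale (two-sided permutation test, p = 0.109, adjusted p = 0.933 over 18 comparisons). For the RFI groups, 6 steers against 6, the log2 differences of the 3 ratios ran from -0.13 for miR-486 to miR-144 in KC to 0.11 for the same ratio in Angus. Their unadjusted p-values by exact permutation test (two-sided, 924 relabelings, smallest possible p of 0.00216) lay between 0.511 and 0.952.

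**Figure D3:**
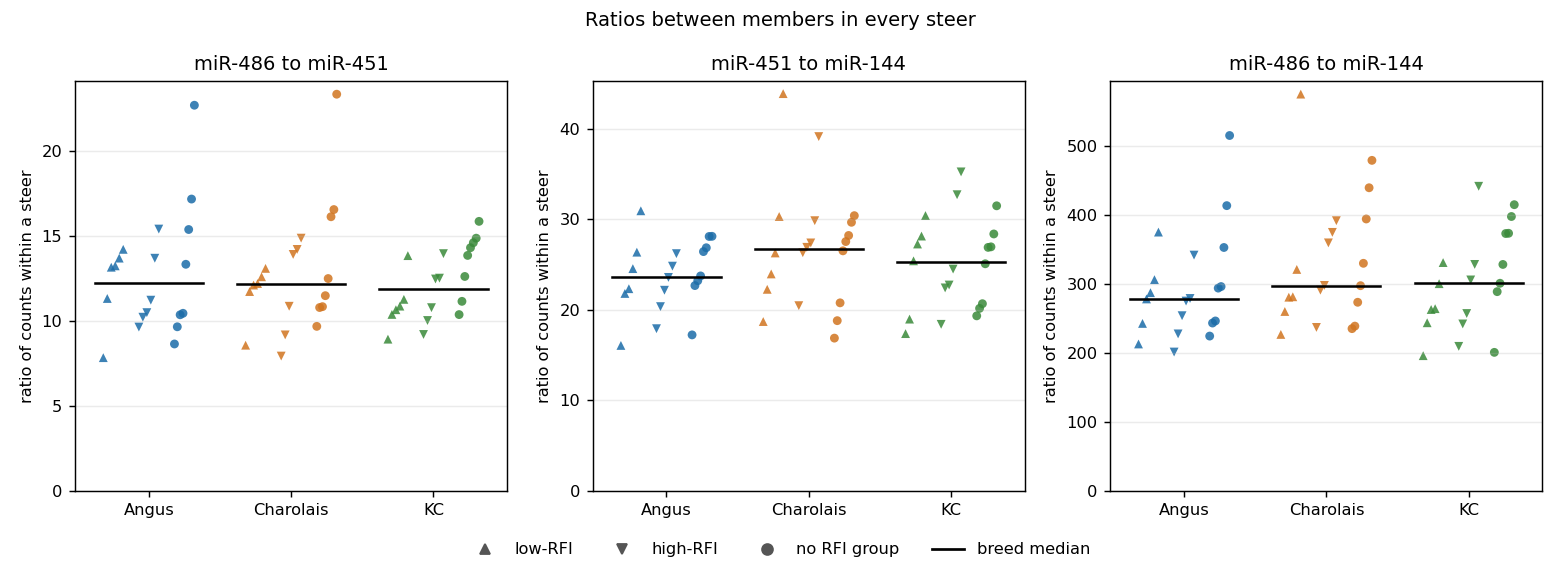
Ratios of the counts of 2 members within each steer, 1 point per steer, by breed (colour and position) and RFI group (marker), with the breed median as a black line. The medians of miR-486 to miR-451 are 12.2, 12.1 and 11.9 in Angus, Charolais and KC.

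Which other miRNAs varied like the members? Among the 222 other miRNAs with at least 10 counts in every steer, the nearest to each member by Spearman's rho were the other two, in first and second place for all 3. The third place fell well behind. For miR-486 it was miR-374a with rho = 0.45, followed by miR-361 with 0.45 and miR-1388-5p with 0.44. For miR-451 it was miR-1388-5p with 0.49, followed by miR-664b with 0.49 and miR-342 with 0.44. For miR-144 it was miR-2285g with 0.41, followed by miR-1388-5p with 0.36 and miR-2285ba with 0.34. The median rho over the 222 was -0.00 for miR-486, 0.02 for miR-451 and 0.03 for miR-144. These are descriptions with no test. Some of these next places varied between breeds, as for miR-374a with miR-486, whose rho came to 0.59 in Angus, to 0.66 in Charolais and to 0.01 in KC.

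For miRNAs known from other blood and liver cells the median rho with each member was within 0.1 of that of all miRNAs, apart from the endothelial pair. Of 13 other miRNAs that red cells carry, such as miR-15a, miR-92a, miR-93 and miR-185, 11 had at least 10 counts in every steer. Their rho with miR-451 ran from -0.20 for miR-92a to 0.23 for miR-183 with a median of 0.02, beside 0.02 over all 222. The summed level of the 13 was 11766 to 12186 CPM in the median steer of each breed, above that of the 3 members, and it had a rho of -0.17 with miR-451. Most of the 13 are also made by many tissues, and the part of red cells in their levels was not tested. For the 8 leukocyte miRNAs, the marks of the other blood cells, the median rho with miR-451 was 0.05 and the highest was 0.44 for miR-342. Among them miR-223, the neutrophil miRNA, had a pooled rho of 0.05 with miR-451, with 0.30 in Angus, -0.31 in Charolais and 0.05 in KC. miR-150, a lymphocyte miRNA, had a pooled 0.02 (0.18, -0.06 and 0.04 by breed in the same order). miR-142-5p, found across leukocytes, had a pooled 0.05 (0.30, -0.08 and -0.06). The 4 hepatocyte miRNAs had a median rho of 0.03 with miR-451, and the 2 endothelial ones, miR-126-5p and miR-126-3p, had 0.24 and 0.14. For the 5 mesenchymal miRNAs the median was 0.10 and the highest 0.39, for miR-145, which smooth muscle makes.

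miR-486 is also a muscle miRNA, and muscle markers were low. The summed level of 5 muscle miRNAs (miR-1, miR-133a, miR-133b, miR-206 and miR-499) was 36.4 to 42.3 CPM in the median steer of each breed, against 5704 to 7237 CPM for miR-486. Of the 5, only miR-133a had at least 10 counts in every steer, and its rho with miR-486 was 0.12. The series holds no muscle sample to set these levels against, and the part of muscle in the miR-486 counts was not tested. Depth moved with the members, most in Charolais. The breed-centred rho of the library total was 0.29 with miR-486, 0.25 with miR-451 and 0.14 with miR-144. In Angus, Charolais and KC it was 0.05, 0.51 and 0.28 with miR-486, 0.10, 0.35 and 0.24 with miR-451, and 0.10, 0.16 and 0.13 with miR-144. With all libraries thinned to 1 total the pooled r was 0.78 for miR-486 and miR-451, 0.79 for miR-451 and miR-144, and 0.68 for miR-486 and miR-144. Thinning evens out counting error and leaves any relation of the levels with depth in place.

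**Figure D4:**
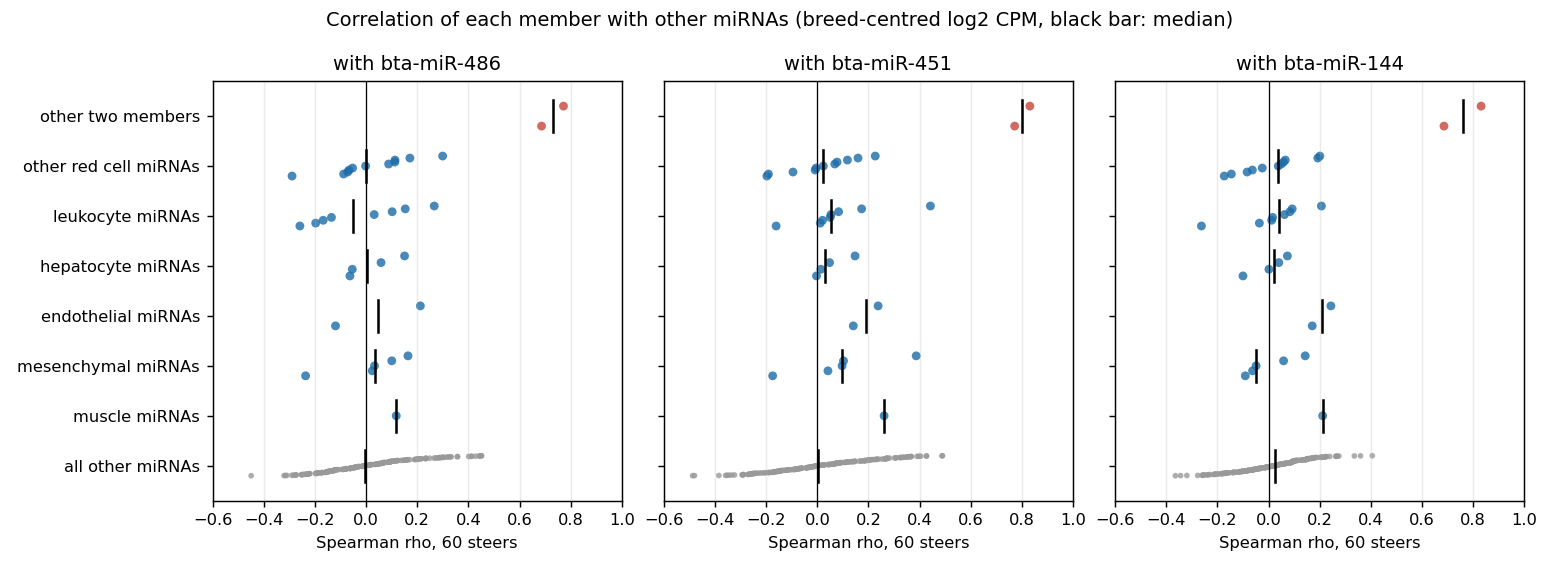
Spearman's rho over 60 steers (breed-centred log2 CPM) of each member with the other two (red), with miRNAs of 6 cell-type lists (blue) and with all remaining miRNAs (grey), for miRNAs with at least 10 counts in every steer. Black bars are medians; the other two members lie between 0.69 and 0.83, and every other point lies below 0.50.

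Did the members differ between feed-efficient and inefficient steers? In none of the 3 breeds did a member pass the test. In Angus miR-486 stood at 5816 to 11701 CPM in the 6 low-RFI steers around a median of 10998, and at 5409 to 12040 CPM in the 6 high-RFI steers around a median of 7653. Of the low-RFI steers 4 lay between 10890 and 11701 CPM, and 5 of the high-RFI steers lay between 5409 and 7826, but each group also held steers in the range of the other, and the groups overlapped. The low-RFI to high-RFI log2 fold change was 0.35 (SE 0.20, 95% interval -0.06 to 0.76; edgeR quasi-likelihood test, adjusted p = 0.957). Its unadjusted edgeR p was 0.0909, and the exact permutation test of the same 12 steers gave p = 0.182 (two-sided). Without the single high-RFI steer at 12040 CPM the log2 fold change of miR-486 was 0.52, which was under 0.05 unadjusted (0.00811) and not after adjustment (edgeR adjusted p = 0.602). Without low-RFI replicate 1 or without low-RFI replicate 3 it was 0.44, also under 0.05 unadjusted (0.0315 and 0.0393) and not after adjustment (edgeR adjusted p = 0.861 and 0.972). Over all 12 such fits in Angus it ran from 0.27 to 0.52.

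For the pair from the shared transcript the fold changes in Angus were also above 0 and did not pass the test. miR-451 ran from 474 to 982 CPM in low-RFI Angus around a median of 831, and from 351 to 880 CPM in high-RFI Angus around 741, a log2 fold change of 0.27 (SE 0.20, 95% interval -0.15 to 0.69). miR-144 ran from 17.98 to 55.0 CPM around 37.6 in low-RFI Angus and from 15.8 to 43.2 CPM around 29.1 in high-RFI Angus, a log2 fold change of 0.25 (SE 0.24, 95% interval -0.26 to 0.76). Leaving out 1 steer at a time, the log2 fold change ran from 0.14 to 0.38 for miR-451 and from 0.09 to 0.40 for miR-144. The lowest values came without high-RFI replicate 6 for miR-451 and without low-RFI replicate 6 for miR-144, and the highest of both without low-RFI replicate 3. Both pairs of groups overlapped over most of their range. The 8 Angus steers without an RFI label had medians of 6091 CPM for miR-486, 515 for miR-451 and 21.5 for miR-144, below both labelled groups. These 8 steers also came from the ends of RFI, and miRNA profiles entered the choice of the labelled ones. They were not compared by a test.

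In Charolais the groups lay closer. miR-486 had a median of 5950 CPM in low-RFI steers (4308 to 9850) and of 5704 CPM in high-RFI steers (4749 to 10609), a log2 fold change of 0.09 (SE 0.22, 95% interval -0.37 to 0.55). miR-451 had a low-RFI median of 477 CPM (353 to 1150) and a high-RFI median of 526 CPM (334 to 977), with a log2 fold change of 0.09 (SE 0.29, 95% interval -0.53 to 0.72). For miR-144 the medians were 21.7 CPM (11.2 to 37.9) and 16.2 CPM (14.5 to 35.7), with a log2 fold change of 0.21 (SE 0.30, 95% interval -0.43 to 0.84). In each case the range of one group contained most of the other.

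In KC the fold changes were the closest to 0. Here the median of miR-486 was 6560 CPM in low-RFI steers (3508 to 12156) and 7244 CPM in high-RFI steers (5330 to 7901). Low-RFI steers were the more spread out, with both the lowest and the highest of the 12 values. The log2 fold change was 0.02 (SE 0.22, 95% interval -0.45 to 0.50) for miR-486, 0.05 (SE 0.19, 95% interval -0.36 to 0.45) for miR-451 and 0.08 (SE 0.21, 95% interval -0.37 to 0.53) for miR-144. Whether the spread itself differed between RFI groups was not tested.

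Counted over the test, 0 of the 3 members passed an adjusted p of 0.05 by edgeR's quasi-likelihood test in Angus, Charolais or KC, and 0 passed an unadjusted p of 0.05, by edgeR or by DESeq2. The background was the same: of all miRNAs tested, 0% passed the adjusted threshold in each breed, and 4.02%, 5.36% and 4.42% of 373, 373 and 385 passed the unadjusted one. By the rule of an unadjusted p under 0.05 with a fold above 1.5, the backgrounds were 2.68%, 2.41% and 1.82%, and no member was called. Fitted over the 36 labelled steers with breed as a term, the log2 fold changes of low-RFI to high-RFI were 0.13 for miR-486 (95% interval -0.15 to 0.40), 0.11 for miR-451 (-0.18 to 0.41) and 0.16 for miR-144 (-0.16 to 0.47), each with an edgeR adjusted p of 0.957 beside a background of 0.235%, or 3.52% unadjusted. The median log2 fold change over all 426 miRNAs of that fit was -0.01. The interaction of RFI group and breed had an edgeR adjusted p of 0.987 for each member, beside a background of 0%, or 4.69% unadjusted. The intervals show which differences 6 steers a group could not tell from 0.

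Few steers allowed a comparison within a sire. When sire entered the fit as a block, miR-486 had a log2 fold change of 0.78 (SE 0.25) in Angus, of -0.31 (SE 0.36) in Charolais and of -0.50 (SE 0.15) in KC, and none passed the threshold (edgeR adjusted p-values of 0.669, 0.778 and 0.760). These values compare very few animals. In Angus 2 sires had steers in both RFI groups, with 2 low-RFI and 3 high-RFI steers. In Charolais and in KC there was 1 such sire each, with a single low-RFI steer against 4 and 3 high-RFI steers, so the value below 0 describes 1 animal in each of these breeds and gives no direction for the breed. RFI group and sire cannot be told apart for the other labelled steers.

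Between breeds the mean of each member was lowest in Charolais, by amounts that did not pass the test after adjustment. The breed fit had no term for sire, and no sire had steers in more than 1 breed. Half-sibs therefore count as independent steers in it, and its SE, intervals and p-values may be too small. miR-144 ran from 15.7 to 55.0 CPM in Angus (median 25.8), from 7.27 to 37.9 CPM in Charolais (median 16.9) and from 15.5 to 46.3 CPM in KC (median 24.05). Its means were 28.02 ± 10.5, 20.7 ± 8.66 and 24.7 ± 7.81 CPM (SD, n = 20 a breed), and the 3 ranges overlapped widely. The log2 fold change of Charolais to Angus for miR-144 was -0.41 (SE 0.16, 95% interval -0.72 to -0.10; n = 20 a breed, edgeR quasi-likelihood test, p = 0.0107, adjusted p = 0.112).

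miR-486 followed the same order. Angus averaged 7892 ± 2581 CPM, Charolais 6393 ± 2172 and KC 7356 ± 2443 (SD, n = 20 per breed). Charolais to Angus, the log2 fold change was -0.30 (SE 0.14, 95% interval -0.59 to -0.02; n = 20 a breed, edgeR, p = 0.0370, adjusted p = 0.234). miR-451 stood at 648 ± 198, 538 ± 229 and 609 ± 173 CPM in the same order of breeds, with a log2 fold change of -0.27 for Charolais to Angus (SE 0.15, 95% interval -0.57 to 0.03; edgeR adjusted p = 0.353). KC lay between the others for each member. The log2 fold changes of KC to Angus were -0.10 for miR-486, -0.09 for miR-451 and -0.17 for miR-144, and those of KC to Charolais were 0.20, 0.18 and 0.24. The 3 members move together from steer to steer, so their like order over breeds is not 3 separate observations.

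Over any breed difference, 0 of the 3 members passed the adjusted threshold by edgeR or by DESeq2, beside a background of 18.1% of 443 miRNAs by edgeR. The adjusted p-values were 0.119 for miR-144, 0.248 for miR-486 and 0.377 for miR-451. At an unadjusted p under 0.05, 1 of the 3 passed (miR-144, by either tool), beside a background of 33.6%. For Charolais to Angus, 2 of the 3 passed the unadjusted threshold by edgeR and 1 by DESeq2, beside 17.2% of all miRNAs tested by edgeR, and 1.35% passed after adjustment. For KC to Angus and KC to Charolais no member passed at an unadjusted p of 0.05, beside 26.4% and 28% of all miRNAs. The median log2 fold change over all 443 was -0.01, 0.01 and 0.01 in the 3 contrasts. Without the 2 libraries of low TMM factor, the log2 fold changes of Charolais to Angus were -0.42 for miR-144, -0.31 for miR-486 and -0.29 for miR-451.

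**Figure D5:**
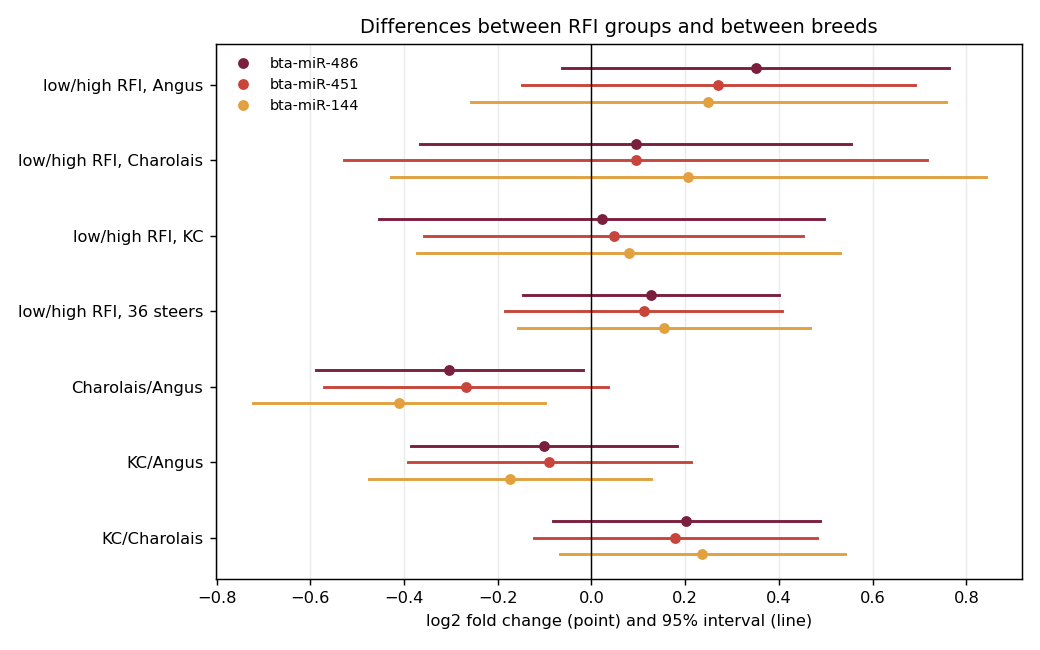
Log2 fold change (point) with its 95% interval (line) from the edgeR quasi-likelihood fits for each member: low-RFI to high-RFI in each breed (12 steers) and over 36 steers, and each pair of breeds (60 steers). The intervals include 0 except for miR-486 and miR-144 between Charolais and Angus, and no comparison passed after adjustment. Sire was not a term in these fits, so half-sibs count as independent and the intervals may be too narrow.

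In Charolais the largest sire family had medians below those of the rest of the breed. Its 8 steers, 1 of them low-RFI, 4 high-RFI and 3 without a label, had miR-486 between 4123 and 5916 CPM around a median of 5002, while the other 12 Charolais steers ran from 3192 to 10807 CPM around 6895. Of those 12, 8 were above every steer of the family for miR-486, 4 for miR-451 and 7 for miR-144. The family's median was 426 CPM for miR-451 and 15.9 CPM for miR-144, against 557 and 23.4 CPM in the other 12. Another Charolais sire, with 3 steers, had lower medians for these, 285 CPM for miR-451 and 11.2 CPM for miR-144, and a higher one for miR-486, 6433 CPM. In KC the largest family, also of 8 steers, ran for miR-486 from 5124 to 12800 CPM around 7643, against 6366 in the median of the other 12. The families were chosen for their size, and the difference between sires was not tested.

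Of the 36 tested miRNAs of the 6 lists, 5 (13.9%) passed the adjusted threshold over any breed, a share near the background of 18.1%. Of the 13 other red cell miRNAs, 1 passed the adjusted threshold over any breed, miR-182, which was higher in Charolais than in Angus (log2 fold change 0.46, SE 0.13, edgeR adjusted p = 0.0444) and lower in KC than in Charolais (-0.36, SE 0.13, edgeR adjusted p = 0.0397). miR-107 of the same list was slightly lower in KC than in Angus (-0.12, SE 0.04, edgeR adjusted p = 0.0459). Of the 8 leukocyte miRNAs 2 passed over any breed: miR-146a and miR-155, which respond to inflammatory signals, were higher in KC than in Angus, by 0.29 (SE 0.09) and 0.49 (SE 0.15) on the log2 scale, with edgeR adjusted p-values of 0.0192 and 0.0182. The medians of the lists for Charolais to Angus were -0.01 for the other red cell miRNAs, 0.12 for the leukocyte and 0.20 for the hepatocyte miRNAs, against -0.30 for the members. Of the 4 hepatocyte miRNAs, miR-122 and miR-885 passed over any breed, and miR-885 was 0.56 (SE 0.11) higher in KC than in Angus on the log2 scale (edgeR adjusted p = 0.000128). Neither endothelial nor muscle miRNAs passed in any breed contrast by edgeR, and of the 5 mesenchymal ones miR-199a-5p was 0.20 (SE 0.06) higher in KC than in Charolais (edgeR adjusted p = 0.0254). Between RFI groups no miRNA of any of the 6 lists passed after adjustment in a breed or over the 36 steers. The part of these lists in the members' values was not tested.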

How the data were processed

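Per the labels and the study's methods, liver small RNA was prepared with an RNeasy kit and TruSeq Small RNA libraries. The authors trimmed reads with cutadapt 1.16, kept those of 15 to 28 bases, removed other small RNA classes, and counted known miRNAs with miRDeep2 and Bowtie 1.1.1 on UMD3.1. The deposited values are these raw counts per mature miRNA and precursor, 1 table per steer, not normalised. Groups came from the labels. Here, counts of a miRNA with several precursors were averaged, giving 1030 miRNAs. miRNAs that reached 1 CPM in 6 or more steers of a fit were scaled by TMM and tested with the quasi-likelihood test of edgeR 4.0.16 (R 4.3.3), with Benjamini-Hochberg adjustment over all miRNAs of the fit: low-RFI against high-RFI in each breed (12 steers), over 36 steers with breed as a term, their interaction, and breeds (60 steers). DESeq2 1.42.0 was an alternative. Correlations and ratios used permutation tests (100000 resamples, exact for 6 against 6), and correlations used log2 CPM with a prior count of 0.5. Most-like miRNAs were the 5 highest by Spearman's rho among miRNAs with at least 10 counts in every steer. Text names the members, listed miRNAs that passed a test, the most-like miRNAs, miRNAs sharing seed bases, and liver markers; listed miRNAs named as examples without passing are named beyond that rule. The members and lists were chosen with earlier results of these data known. Replicate numbers follow the order of deposition and pair no steers, and 1 steer is 1 replicate. The calculations were tested on simulated data. Alternatives covered the test, scaling, filters, precursor counts, depth, sire and single steers left out. Those without the 2 libraries of low TMM factor, and within-breed correlation settings, were chosen after seeing the data.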

Additional observations from a re-analysis of the deposited data

Results flagged for a closer look

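In 7 of 54 groups of 6 or 8 steers (3 members and 3 ratios, in 9 groups each), 1 steer lay far from the others by Dixon's test. For separate groups of normally spread values, chance gives about 1 in 20. The values here were CPM and ratios without a log, and the members and their ratios are related. The 7 of 54 can therefore not be set against that share. For bta-miR-486, Angus high-RFI replicate 4 stood at 12040 CPM with the next steer at 7826, and Charolais high-RFI replicate 5 at 10609 CPM with the next at 5916. That Charolais steer was also high in bta-miR-144, at 35.7 CPM with the next at 22.2. In KC, bta-miR-144 was high in low-RFI replicate 1, at 46.3 CPM with the next at 24.9, and low in high-RFI replicate 1, at 16.7 CPM with the next at 23.8. The count ratio of bta-miR-486 to bta-miR-451 was lowest in Charolais low-RFI replicate 5, at 8.56 with the next at 11.7. The ratio of bta-miR-486 to bta-miR-144 was highest in Charolais low-RFI replicate 2, at 575 with the next at 321. The cause was not tested.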

How the results depend on the processing

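Over 1299 tests of members under all settings, which include the interaction and the test of any breed difference, no member passed. The smallest edgeR adjusted p was 0.0598, for any breed difference of miR-144 with 1 steer left out. All alternative values of Pearson's r (360 leaving out 1 steer and 33 others) kept their direction and a permutation p under 0.05. Spearman's rho was not followed through these settings. No paired analysis was possible because replicate numbers follow the order of deposition and link no steers. The cause of the changes below was not tested. The fit with sire as a block rests on 1 low-RFI steer in Charolais and 1 in KC, the only ones with a high-RFI half-sib, so its values and calls there describe single animals. In it, low-RFI to high-RFI log2 fold changes were in Charolais -0.37 for miR-144, -0.52 for miR-451 and -0.31 for miR-486, in KC -0.21, -0.31 and -0.50, and over 36 steers -0.014 for miR-451. For miR-486 in KC, near 0, the value was -0.0076 by DESeq2, -0.0080 by RLE scaling, -0.0080 with precursor counts summed and -0.0053 with partly listed pairs left out. In thinned counts the log2 ratio of miR-486 to miR-451 was -0.011 for Charolais minus Angus and -0.0035 for low-RFI minus high-RFI Charolais. Calls at an unadjusted p under 0.05 and a fold above 1.5 numbered 10, 9 and 7 in Angus, Charolais and KC. They came to 19, 14 and 14 without a filter, to 1, 2 and 4 with at least 10 counts in every steer, and to 42 in Charolais and 15 in KC with sire as a block. Adjusted calls came to 5 in Charolais with sire, and to 1 in KC by DESeq2 and by the likelihood-ratio test. Over 36 steers the 1 call became 0 by DESeq2, by the likelihood-ratio test and with the strict filter, and the interaction had 1, 1 and 7 calls by DESeq2, by the likelihood-ratio test and with sire. For Charolais minus Angus the 6 calls became 14 by DESeq2, 11 with partly listed pairs left out and 2 with 36 steers, for KC minus Angus the 50 became 30 with those pairs left out and 25 with 36 steers, and for KC minus Charolais the 76 became 48 with the strict filter. The spread percentile of miR-486 was 44.9 of all tested and 81.6 of the strict set without TMM, and that of miR-451 87.9 by coefficient of variation. Leaving out 1 steer, fold changes in Angus kept their sign, and in Charolais ran from -0.0017 to 0.47 (miR-144), -0.22 to 0.33 (miR-451) and -0.069 to 0.31 (miR-486), lowest without low-RFI replicate 5 and highest without high-RFI replicate 5. In KC the fold changes ran from -0.15 to 0.15, -0.094 to 0.16 and -0.24 to 0.13. Calls by p and fold ran from 6 to 12 in Angus and 3 to 15 in KC, and adjusted calls from 0 to 1 in KC, 0 to 2 over 36 steers, 0 to 1 for the interaction and 5 to 16 for Charolais minus Angus. The log2 ratio of miR-486 to miR-451 ran from -0.043 to 0.053, -0.061 to 0.019 and -0.067 to 0.015 for Charolais minus Angus, KC minus Angus and KC minus Charolais, from -0.0036 to 0.17 between RFI groups in Angus and from -0.095 to 0.10 in Charolais. That of miR-451 to miR-144 ran from -0.026 to 0.16, -0.21 to 0.033 and -0.17 to 0.022 between RFI groups in Angus, Charolais and KC, and that of miR-486 to miR-144 from -0.24 to 0.033 in Charolais. Of the 5 most-like miRNAs, which include the other 2 members, 2 to 5 were shared under each alternative. In 6 alternatives 3 or fewer were shared, so the places after the members depended on the setting. Counting error limits miR-144, with a lowest count of 17.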
